A study of Rattus norvegicus with 6 samples.

Results

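Cytochrome P450 genes were read out by RNA sequencing of rat dorsal root ganglia (DRG), which house the somata of sensory neurons, at day 7 after partial sciatic nerve ligation (pSNL, 3 libraries) or a sham operation (3 libraries). pSNL is a model of neuropathic pain in which a tight suture catches only some of the nerve's fibres, so cut and intact fibres run side by side. The labels give no genetic change or drug in either group, and neither strain, sex, age, pooling nor the ganglia taken. Whether the 3 libraries of a group stem from different rats is not stated, and p-values then describe library-to-library variation that may be technical. Genes were chosen by their rat symbol, a P450 family, subfamily and gene number, and on 1 measured value, an entry in at least 1 of the 6 libraries, with Cyp51 set aside. This gave 49 genes of 14346 listed in all. Cyp2s1 was singled out beforehand from its pSNL and sham values.

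P450 enzymes are haem proteins that use oxygen and electrons from a reductase to hydroxylate or epoxidise their substrates. Families 1 to 3 are known mainly for the handling of foreign compounds in liver, family 4 and the Cyp2j subfamily for fatty acids and their eicosanoid products, and the higher-numbered families for fixed steps in steroid, sterol, vitamin D and retinoid metabolism. In nervous tissue they are known for local steroid and cholesterol turnover and for making and removing lipid mediators.

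Each library held 4310643 to 4416121 estimated counts, and 39 to 41 of the 49 P450 genes were listed in each. Sensory neuron markers summed to 43259 to 47327 CPM in pSNL libraries and 45059 to 56891 CPM in sham libraries. CPM is the count relative to the library total after TMM scaling, so that 1 CPM is 4.34 to 4.41 counts. The 8 hepatocyte markers summed to 22.2, 37.6 and 32.0 CPM in pSNL, against 16.5, 20.2 and 11.2 CPM in sham. Among them Alb was at 0.229 to 0.906 CPM in pSNL and 0.229 to 0.687 CPM in sham. Most of the sum was Serpina1, at 19.48, 35.05 and 29.5 CPM in pSNL, against 14.87, 19.02 and 9.83 CPM in sham. The groups did not overlap for Serpina1 (log2 fold change 0.94 ± 0.28, edgeR adjusted p = 0.164). The labels were checked with the injury genes Atf3, Gal, Sprr1a, Sox11 and Gap43. Each was higher in every pSNL library than in every sham library, as were 11.1% of all genes tested. Central glia markers summed to 25.6 to 57.6 CPM in pSNL libraries and to 29.5, 25.9 and 1795 CPM in sham replicates 1 to 3, so sham replicate 3 stood apart. Skeletal muscle markers summed to 13.4, 14.5 and 906 CPM in pSNL replicates 1 to 3 and to 18.8, 11.5 and 482 CPM in sham replicates 1 to 3. These are bulk samples, in which fewer cells of a type and less RNA per cell cannot be told apart.

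Which P450 genes were listed at all differed sharply between subfamilies. RefSeq holds 102 symbols of this form, of which 53 (40 protein-coding genes and 13 pseudogenes) were listed in none of the 6 libraries; the authors' annotation is not stated, so whether it held them is unknown. All 8 protein-coding Cyp2b genes were among these, as were 9 of 11 Cyp2c genes and 6 of 8 Cyp3a genes, the subfamilies best known from liver. In contrast, 8 of 9 Cyp4f genes, 3 of 4 Cyp2j genes and all 5 Cyp2d genes were listed, though Cyp4f40 and Cyp2d2 on about 1 count each. Listed in all 6 libraries were 5 Cyp4f, 3 Cyp2j and 2 Cyp2d genes, against 2 Cyp3a genes and no Cyp2c gene. Steroid synthesis lacked Cyp17a1, vitamin D breakdown lacked Cyp24a1, and the bile acid enzymes Cyp7a1 and Cyp8b1 were not listed either.

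Of the 49 genes, 32 were listed in all 6 libraries and 17 in fewer. Just inside the rule stood 6 genes listed in 1 library only, among them Cyp1a2 and Cyp4a1 in a pSNL library and Cyp2c23 in a sham library, each of the 6 with about 1 or 2 counts; those just outside had none. Cyp2e1, Cyp11b3 and Cyp26a1 were listed in 2 libraries, Cyp11a1 and Cyp2d5 in 4, and Cyp1a1, Cyp2c6v1, Cyp2d1, Cyp4f18, Cyp4f37 and Cyp11b2 in 5. For 8 of the 49 genes the 6 libraries together held no more than 3 counts.

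Compared per length as FPKM, the value deposited by the authors, 12 genes averaged above 5 FPKM in pSNL ganglia and 12 in sham ganglia. Cyp4x1, an endocannabinoid-oxidising enzyme as known from the human protein, was the highest in both groups, at 20.7 ± 1.55 FPKM in pSNL and 20.7 ± 3.0 FPKM in sham (SD, n = 3 each, as for all FPKM and CPM means given here with ±). Cyp20a1, which has no established substrate, came next, at 15.5 ± 1.06 FPKM in pSNL and 13.6 ± 0.367 FPKM in sham. In sham it was level with Cyp2d4, at 13.6 ± 3.06 FPKM, a drug-metabolising enzyme that is the main Cyp2d form of rat brain, whereas in pSNL Cyp2d4 ranked 9 of 49 at 8.07 ± 1.48 FPKM. The fatty acid hydroxylases Cyp4f17 and Cyp4f6 followed, Cyp4f17 at 13.2 ± 2.02 FPKM in pSNL and 11.1 ± 2.14 FPKM in sham, and Cyp4f6 at 8.71 ± 1.27 FPKM in pSNL and 10.5 ± 0.649 FPKM in sham.

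Below these, 6 genes lay close together in sham, between 6.09 and 7.92 FPKM, and neighbours in that order differed by less than the larger of their SDs, except for the last pair, Cyp21a1 (6.94 ± 0.289 FPKM) and Cyp4v3 (6.09 ± 0.792 FPKM). The 6 were Cyp2j3 and Cyp2j10 (arachidonic acid epoxygenases), Cyp27a1 (a sterol hydroxylase), Cyp46a1 (the cholesterol hydroxylase of neurons), Cyp21a1 (a steroid hydroxylase of corticoid synthesis) and Cyp4v3 (a fatty acid hydroxylase). The place of Cyp46a1 (7.60 ± 4.85 FPKM) rested on sham replicate 3, at 4.22, 5.42 and 13.15 FPKM in sham replicates 1 to 3. Retinoic acid breakdown was represented by Cyp26b1 at 1.53 ± 0.412 FPKM in pSNL and 1.24 ± 0.242 FPKM in sham, and oestrogen synthesis by aromatase (Cyp19a1) at 1.83 ± 0.269 FPKM in pSNL and 1.59 ± 0.590 FPKM in sham.

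**Figure D1:**
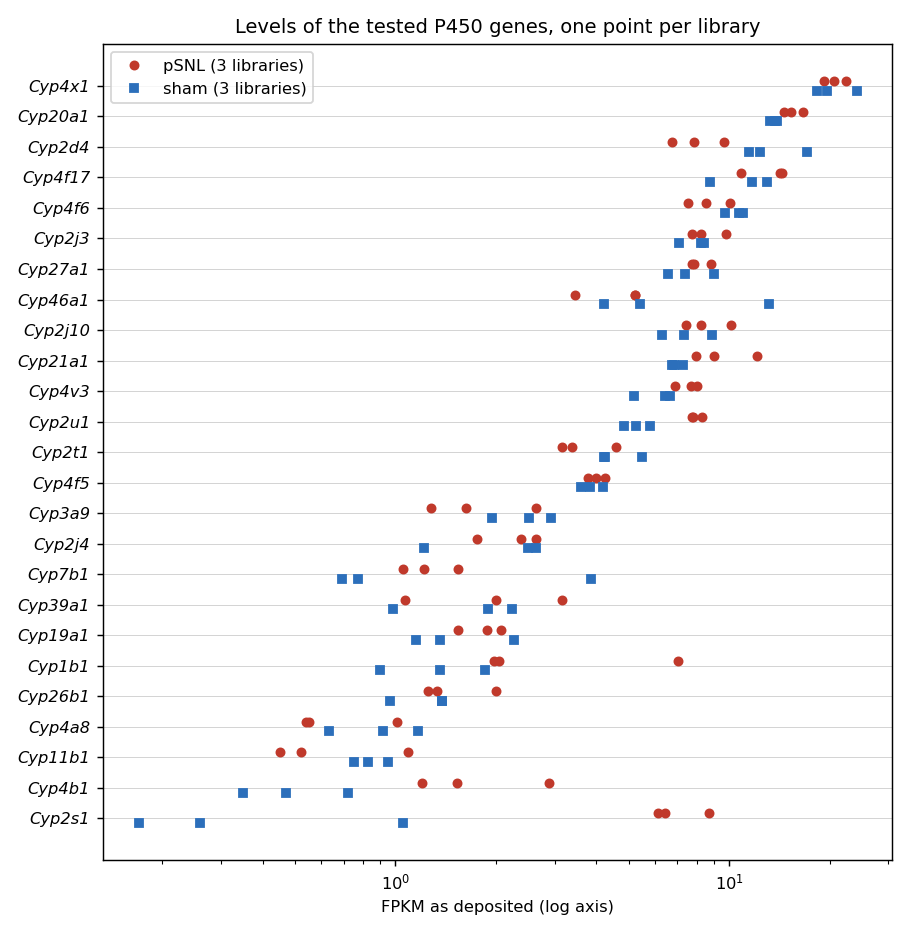
FPKM as deposited (log axis) of the 25 P450 genes that were tested, with 1 point for each of 3 pSNL libraries (circles) and 3 sham libraries (squares), ordered by the sham mean. Cyp4x1 lies highest in both groups, and Cyp2s1, lowest of these in sham, lies between 6.10 and 8.72 FPKM in pSNL.

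The comparison of pSNL with sham asked which of these genes differ in the ganglion after nerve injury. A filter for genes with about 10 counts in at least 3 libraries left 25 of the 49 for testing. Cyp2s1 and Cyp4b1 passed it through their pSNL libraries. Some others, among them Cyp1b1 (19, 14 and 9 counts in sham), would not have passed on their sham libraries alone. Of the 25, 1 passed an adjusted p of 0.05 (edgeR quasi-likelihood test with Benjamini-Hochberg adjustment over all 11091 genes tested), against 0.46% of all genes tested. It was higher in pSNL, as were 0.442% of all genes tested, while 0.018% were lower. It was Cyp2s1, so nothing is read from this count. None of the other 24 passed in edgeR or in DESeq2, which called 2.94% of the same genes. Of these 24, 5 had an unadjusted p under 0.05 (Cyp4b1, Cyp1b1, Cyp2u1, Cyp21a1 and Cyp2d4), where 15.5% of all genes tested had. Libraries of the groups did not overlap for 8 of the 25, 7 higher and 1 lower in pSNL, where 21.3% of all genes tested did not overlap (11.1% higher and 10.2% lower). The 7 include Cyp2s1, Cyp4b1 and Cyp1b1. Without Cyp2s1 and Cyp4b1 the count was 6 of 23, 5 higher and 1 lower, with Cyp1b1 still among the 5. Nothing is read from these counts. Of the 25, 19 had a log2 fold change of less than 0.5 in size. The median was 0.12 over all 25 and 0.09 over the 23, against -0.0024 over all genes tested. With no filter all 49 were tested and Cyp2s1 alone was called, against 0.621% of 14333 genes, and nothing is read from this count either. The injury genes Atf3 and Gal did not pass in edgeR either (adjusted p = 0.089 for both), though DESeq2 called both. Their log2 fold changes were 3.64 ± 0.56 and 4.11 ± 0.62, so not passing does not show that a gene is unchanged.

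**Figure D2:**
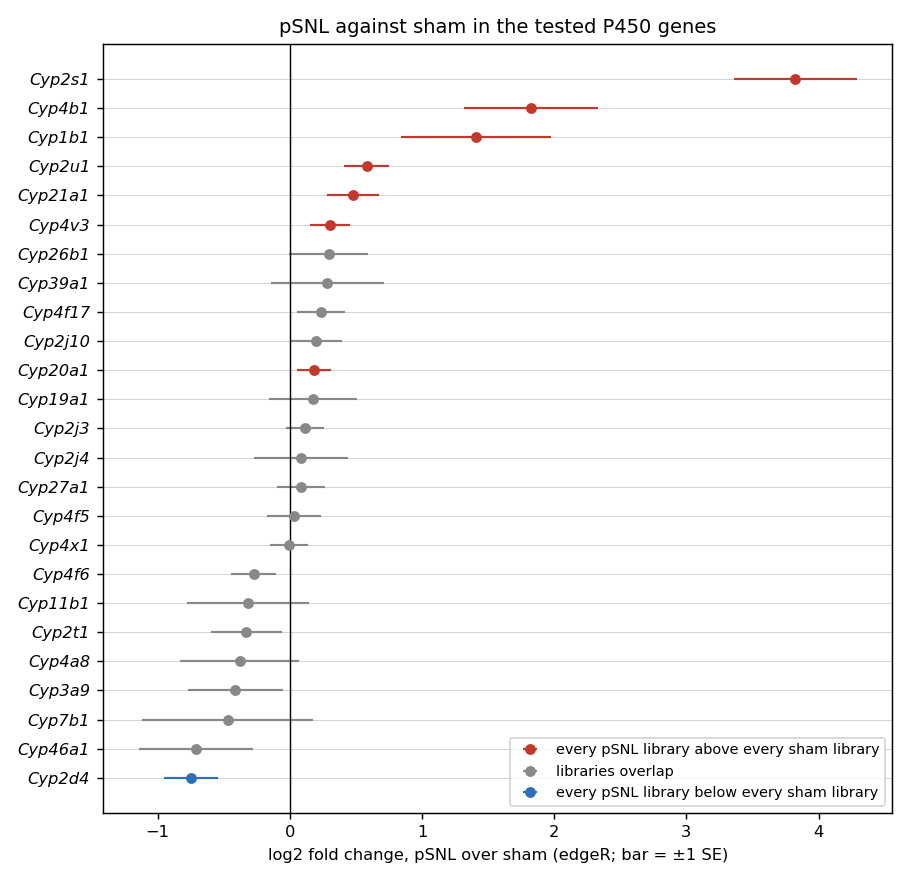
Log2 fold change of pSNL over sham (edgeR, bar ±1 SE) for the 25 tested P450 genes, coloured by whether the 3 pSNL libraries lie above, below or among the 3 sham libraries. Cyp2s1 lies at 3.82, Cyp4b1 at 1.82 and Cyp1b1 at 1.41, and the other values lie between -0.75 and 0.58.

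Cyp2s1 (NCBI gene ID 308445) encodes an extrahepatic P450, known in human and mouse from epithelia such as skin and airway and able to oxidise retinoids and lipid peroxides. It had 74, 70 and 102 counts in pSNL replicates 1 to 3, against 2, 3 and 12 counts in sham replicates 1 to 3. On the scaled library this is 16.8, 16.1 and 23.3 CPM in pSNL, against 0.458, 0.687 and 2.74 CPM in sham. Every pSNL library lay far above every sham library, and sham replicate 3 was the highest of its group. The log2 fold change was 3.82 ± 0.46 (SE), and 4.96 without sham replicate 3. With pSNL replicate 2 left out it was 3.92, and with sham replicate 2 left out it was 3.52; the gene was not called in either fit. The ratio of summed counts was 14.5, with a 95% counting interval of 8.85 to 25.2, which covers counting error only. Per length, it stood at rank 12 of 49 in pSNL, at 7.08 ± 1.43 FPKM, and at rank 31 in sham, at 0.493 ± 0.484 FPKM. All of its estimated counts were whole.

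Its neighbours in the gene order of GRCr8 gave no such values. On one side lie Axl, a receptor tyrosine kinase of phagocytes, then Hnrnpul1, Ccdc97 and Tgfb1. Axl was at 47.6, 72.9 and 53.3 CPM in pSNL, against 47.6, 44.9 and 41.4 CPM in sham (log2 fold change 0.38 ± 0.16, edgeR adjusted p = 0.287). Hnrnpul1, which encodes an RNA-binding protein, and Ccdc97 had log2 fold changes of 0.13 ± 0.09 and 0.03 ± 0.09, and the growth factor gene Tgfb1 of 0.27 ± 0.20 (adjusted p = 0.518, 0.909 and 0.544). On the other side lie the pseudogene Cyp2s1-ps1 and the Cyp2b genes, listed in no library.

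Markers of epithelium and keratinocytes, cells in which Cyp2s1 is known, summed to 396, 370 and 349 CPM in pSNL and to 361, 395 and 266 CPM in sham, almost all of it the adhesion gene Cdh1 (334 to 378 CPM in pSNL, 255 to 382 CPM in sham). Of the 11 markers, Sfn and Esrp1 were listed in no library, and Krt5, Krt14, Krt18, Epcam and Cldn7 were each under 2 CPM in every library. Cldn7 was at 0.2265 to 0.6917 CPM in pSNL and was listed in no sham library. Epcam went the other way, at 0.2265 to 0.686 CPM in pSNL and 0.6865 to 1.375 CPM in sham. Krt8, a keratin of simple epithelia, was at 10.2, 11.8 and 7.32 CPM in pSNL, against 10.5, 8.25 and 6.40 CPM in sham, and the epithelial transcription factor gene Grhl2 was at 0.229 to 2.08 CPM in pSNL and 0.917 to 2.06 CPM in sham. Krt19, a keratin, was at 4.98, 2.77 and 4.12 CPM in pSNL, against 0.915, 2.29 and 0 CPM in sham (log2 fold change 1.86 ± 0.69, edgeR adjusted p = 0.247). Its groups did not overlap. The part of epithelium and keratinocytes in the Cyp2s1 values was not tested.

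Cyp2s1 and Cyp1b1 belong, in human and mouse, with Cyp1a1 and Cyp1a2 to the genes induced through the aryl hydrocarbon receptor (AHR), which binds DNA with its partner ARNT at sites with the core GCGTG. Their upstream sequences are shown because these 2 carried the larger levels among the 4 in pSNL ganglia. Each is the 250 bases before the start of the gene in RefSeq (GRCr8), written 5′ to 3′ on the strand of the gene, with capitals at GCGTG or its complement CACGC. The Cyp2s1 stretch is chr1:90453074-90453323 on the minus strand, and the Cyp1b1 stretch is chr6:21094315-21094564 on the plus strand.
Cyp2s1: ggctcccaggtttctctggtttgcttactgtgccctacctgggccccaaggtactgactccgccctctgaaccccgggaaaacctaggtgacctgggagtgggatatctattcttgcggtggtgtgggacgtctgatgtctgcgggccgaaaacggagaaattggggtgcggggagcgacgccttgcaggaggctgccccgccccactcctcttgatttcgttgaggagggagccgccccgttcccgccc
Cyp1b1: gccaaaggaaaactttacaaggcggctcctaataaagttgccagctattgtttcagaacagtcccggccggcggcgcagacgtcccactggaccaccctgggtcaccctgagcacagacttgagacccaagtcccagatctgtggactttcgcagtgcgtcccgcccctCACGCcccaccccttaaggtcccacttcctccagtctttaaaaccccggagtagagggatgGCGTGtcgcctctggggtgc

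The core was found at 2 places in the Cyp1b1 window and at 0 in that of Cyp2s1. It was present on either strand in 13 of the 38 P450 genes with a RefSeq window, and in 27.2% of all 27457 windows of this length. The AP-1 motif TGANTCA was in 3 of the 38 and in 6.36% of all windows, and the cyclic AMP response element TGACGTCA in 0 of the 38 and in 1.7% of all windows; neither was in the Cyp2s1 or the Cyp1b1 window. A match describes these letters and no binding. Sites outside the windows were not searched, so a 0 covers the window only, and Cyp1a1 had no window.

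Cyp1b1 (gene ID 25426), which hydroxylates oestrogens and polycyclic hydrocarbons and makes retinal and retinoic acid in development, was at 4.53, 16.4 and 4.80 CPM in pSNL, against 4.35, 3.21 and 2.06 CPM in sham. Only pSNL replicate 2 stood clear of the sham libraries, since the lowest pSNL value and the highest sham value differed by less than 1 CPM. The log2 fold change was 1.41 ± 0.57 (edgeR adjusted p = 0.286), and 0.53 without pSNL replicate 2. Cyp1a1, the archetypal AHR-induced gene, had at most 1 count in each pSNL library and 1 to 3 counts in sham libraries, and Cyp1a2 had 1 count over all 6. Ahr itself was at 6.34, 9.91 and 9.15 CPM in pSNL, against 2.06, 3.67 and 3.66 CPM in sham, with no overlap between groups (log2 fold change 1.43 ± 0.33, edgeR adjusted p = 0.0861). Its partner Arnt overlapped between groups, at 10.5 to 16.6 CPM in pSNL and 9.38 to 15.6 CPM in sham.

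Among the other genes of families 1 to 3, Cyp2d4 had the lowest fold change of the 25 tested. It was at 13.8, 12.0 and 17.4 CPM in pSNL, against 22.2, 20.4 and 29.95 CPM in sham (log2 fold change -0.75 ± 0.20, edgeR adjusted p = 0.124). Its highest library was sham replicate 3, the library with the high central glia markers. Without that library the log2 fold change was -0.565. The groups did not overlap, but the estimated counts of Cyp2d4 were not whole in any of the 6 libraries, as happens where reads are divided among paralogs. Summed over the 5 Cyp2d genes, the values were 15.9, 16.6 and 22.6 CPM in pSNL, against 23.4, 21.8 and 32.7 CPM in sham, and these sums overlapped. Cyp2d1 was at 0.906, 3.92 and 2.52 CPM in pSNL and 0.915, 0 and 1.37 CPM in sham. Cyp2d3 and Cyp2d5 averaged under 1 CPM in both groups.

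Cyp2a3, a nasal and lung enzyme of the rat that oxidises coumarin and nitrosamines, lay just outside the filter for testing. It had 2, 7 and 6 counts in pSNL, against 10, 13 and 10 counts in sham, with no overlap. When the filter was dropped its log2 fold change was -1.12 ± 0.56 (edgeR adjusted p = 0.423). Cyp2t1, which has no established substrate, was at 4.98 to 7.38 CPM in pSNL and 6.87 to 8.69 CPM in sham, and Cyp3a9, a steroid and drug hydroxylase, at 2.49 to 5.26 CPM in pSNL and 3.90 to 5.72 CPM in sham. Both overlapped between groups (log2 fold change -0.33 ± 0.27 and -0.41 ± 0.36, edgeR adjusted p = 0.597 and 0.618). Cyp3a62 averaged 0.457 CPM in pSNL and 0.611 CPM in sham.

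**Figure D3:**
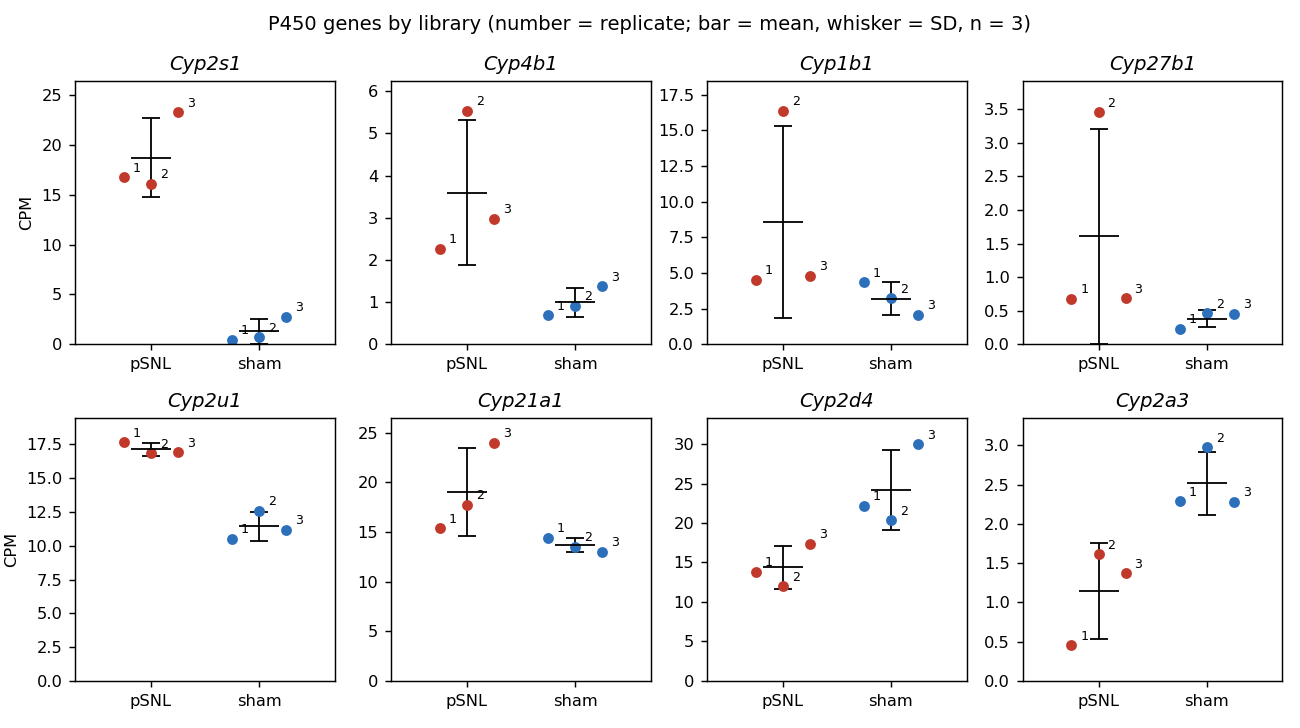
CPM of 8 P450 genes in each library, with pSNL left of sham, the replicate number at each point, the mean as a bar and the SD as whiskers (n = 3). The 8 genes were chosen with their values known, and the groups do not overlap for any of them, so nothing is read from that. Cyp27b1 and Cyp2a3 did not pass the filter for testing. Of the 25 tested P450 genes 8 did not overlap, where 21.3% of all genes tested did not. In pSNL, replicate 2 carries most of the level of Cyp1b1 and Cyp27b1.

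Enzymes of fatty acids and eicosanoids made up the largest share of P450 reads, with 176, 193 and 199 CPM summed over 18 genes in pSNL, against 162, 177 and 176 CPM in sham, and none of the 11 tested passed in edgeR. Cyp2u1, a fatty acid hydroxylase known in human from brain, showed the tightest separation. It was at 17.7, 16.8 and 16.9 CPM in pSNL, against 10.5, 12.6 and 11.2 CPM in sham, so every pSNL library was higher (log2 fold change 0.58 ± 0.17, edgeR adjusted p = 0.146). Its range over all alternatives was 0.53 to 0.65. Cyp4b1, which in rodent lung activates furans and hydroxylates short-chain fatty acids, was at 2.27, 5.53 and 2.97 CPM in pSNL, against 0.686, 0.916 and 1.37 CPM in sham, with no overlap and with pSNL replicate 2 the highest (log2 fold change 1.82 ± 0.51, edgeR adjusted p = 0.129). Cyp4v3, known in human (CYP4V2) for retinal lipid disease, was at 25.6, 22.4 and 25.2 CPM in pSNL, against 21.7, 16.95 and 20.6 CPM in sham, a narrow separation (log2 fold change 0.30 ± 0.15, edgeR adjusted p = 0.375).

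Cyp1b1 and Cyp4b1, each highest in pSNL replicate 2, are set beside markers of fibroblasts and meninges, which were highest in the same library. These 8 markers summed to 4179, 6927 and 4871 CPM in pSNL replicates 1 to 3, against 3771, 2599 and 1711 CPM in sham replicates 1 to 3. All 7 tested markers had no overlap and were higher in pSNL, where 11.1% of all genes tested were, and 1 (Mgp) passed the threshold, while Slc22a6 was at 0 to 1.81 CPM in pSNL and 0 to 0.914 CPM in sham. Their part in the P450 values was not tested.

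The Cyp4f genes are close paralogs, and each of the 8 listed had an estimated count that was not whole in at least 1 library. Their sum was 50.3, 59.9 and 61.9 CPM in pSNL, against 50.2, 60.6 and 59.8 CPM in sham. The groups of this sum overlapped. Single members had log2 fold changes of 0.24 ± 0.18 for Cyp4f17, 0.03 ± 0.21 for Cyp4f5 and -0.27 ± 0.17 for Cyp4f6 (edgeR adjusted p = 0.565, 0.959 and 0.477). Cyp4f4 was at 0.906, 2.54 and 1.83 CPM in pSNL, against 1.37, 1.15 and 4.12 CPM in sham. Cyp4f1 was at 0.906, 0.692 and 0.457 CPM in pSNL, against 0.687, 0.687 and 2.29 CPM in sham. Sham replicate 3 was the highest library for both, and for Cyp4f1 over 2 times every other. Cyp4f18 and Cyp4f37 averaged under 1 CPM in both groups.

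The epoxygenases Cyp2j3, Cyp2j10 and Cyp2j4 summed to 49.6, 52.6 and 59.0 CPM in pSNL, against 46.9, 46.0 and 53.5 CPM in sham. They overlapped gene by gene, with log2 fold changes of 0.12 ± 0.14, 0.20 ± 0.20 and 0.09 ± 0.36 (edgeR adjusted p = 0.743, 0.676 and 0.933). Cyp4x1 was at 28.8, 33.9 and 31.6 CPM in pSNL, against 30.2, 36.9 and 27.4 CPM in sham (log2 fold change -0.0050 ± 0.15, edgeR adjusted p = 0.991). Cyp4a8, a fatty acid hydroxylase of the rat, was at 1.36 to 2.54 CPM in pSNL and 1.60 to 2.98 CPM in sham.

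Of the steroid hormone enzymes, Cyp21a1 was the most abundant, at 15.4, 17.7 and 24.0 CPM in pSNL, against 14.4, 13.5 and 13.0 CPM in sham. Every pSNL library was above every sham library, pSNL replicate 1 by less than 1 CPM (log2 fold change 0.48 ± 0.20, edgeR adjusted p = 0.279). Aromatase (Cyp19a1), whose estimated counts were not whole in any library, overlapped, at 4.30, 5.30 and 5.95 CPM in pSNL, against 3.43, 3.90 and 6.40 CPM in sham (log2 fold change 0.18 ± 0.33, edgeR adjusted p = 0.845). The first enzyme of the pathway, Cyp11a1, which cuts the cholesterol side chain, had 1 count over the pSNL libraries and 5 counts over the sham libraries. The aldosterone and corticosterone genes Cyp11b1, Cyp11b2 and Cyp11b3, close copies with counts that were not whole, summed to 4.38, 2.13 and 4.86 CPM in pSNL and 4.02, 3.06 and 2.76 CPM in sham.

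Turnover of cholesterol in neurons begins with Cyp46a1, and Cyp7b1 hydroxylates oxysterols and the steroid DHEA. Cyp46a1 was at 12.7, 8.53 and 13.0 CPM in pSNL, against 10.5, 13.5 and 32.0 CPM in sham (log2 fold change -0.71 ± 0.43, edgeR adjusted p = 0.486). Cyp7b1 was at 3.17, 2.77 and 4.12 CPM in pSNL, against 1.83, 2.06 and 10.1 CPM in sham (log2 fold change -0.47 ± 0.65, edgeR adjusted p = 0.779). For both, sham replicate 3 was over 2 times every other library, and it is the library with the high central glia markers named above. Without it the log2 fold change was -0.08 for Cyp46a1 and 0.77 for Cyp7b1, the reverse sign, and neither passed. Of the 32 P450 genes listed in all libraries, 2, 6 and 7 were highest in pSNL replicates 1 to 3, and 2, 5 and 10 in sham replicates 1 to 3. The part of the glial markers in these values was not tested.

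**Figure D4:**
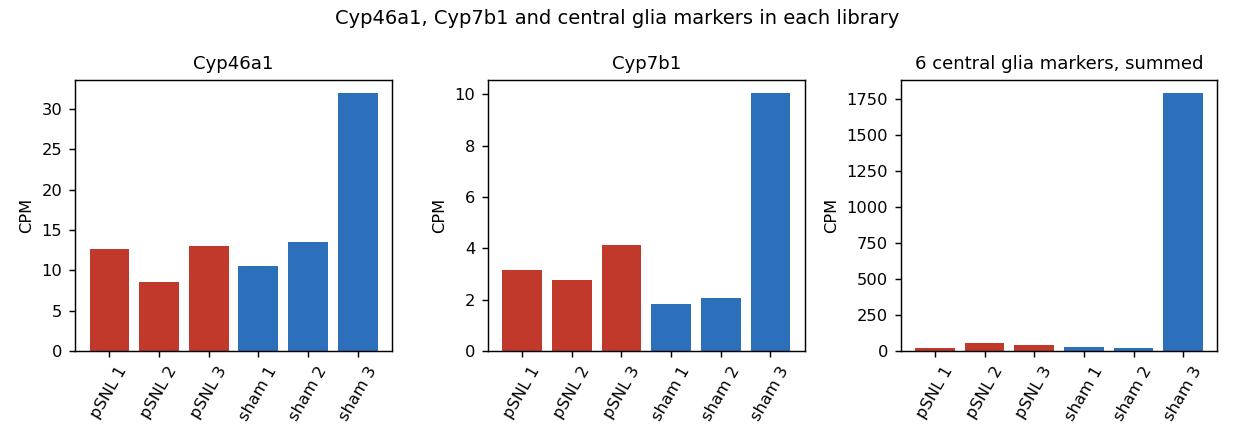
CPM per library of Cyp46a1, Cyp7b1 and the sum of 6 central glia markers, with pSNL libraries left of sham libraries. Sham replicate 3 is the highest bar in all panels, at 32.0 CPM, 10.1 CPM and 1795 CPM.

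The other sterol enzymes gave no such library. Cyp27a1, which starts the acidic bile acid route and also acts on vitamin D, was at 16.5, 15.0 and 14.9 CPM in pSNL, against 12.6, 14.2 and 16.9 CPM in sham (log2 fold change 0.09 ± 0.18, edgeR adjusted p = 0.863). Cyp39a1, an oxysterol hydroxylase, ranged from 3.46 to 10.3 CPM in pSNL and from 3.20 to 7.09 CPM in sham.

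For vitamin D, Cyp2r1, which makes the circulating form, had 6, 3 and 5 counts in pSNL, against 7, 5 and 7 counts in sham. Cyp27b1, which makes the active hormone and is also known from activated macrophages, had 3, 15 and 3 counts in pSNL, against 1, 2 and 2 counts in sham. The groups did not overlap for Cyp27b1, and pSNL replicate 2 held most of its pSNL counts. Neither gene passed the filter, and without it the log2 fold change was -0.44 ± 0.60 for Cyp2r1 and 1.99 ± 0.87 for Cyp27b1 (edgeR adjusted p = 0.777 and 0.343). The ratio of summed counts for Cyp27b1 was 4.20, with a 95% counting interval of 1.54 to 14.2. Macrophage markers summed to 313, 513 and 525 CPM in pSNL, against 196, 176 and 233 CPM in sham, and their part in this value was not tested. Cyp26b1, which clears retinoic acid, was at 5.66, 9.22 and 6.17 CPM in pSNL, against 6.41, 6.42 and 4.34 CPM in sham (log2 fold change 0.29 ± 0.30, edgeR adjusted p = 0.682), and the orphan Cyp20a1 at 30.6, 29.7 and 34.3 CPM in pSNL, against 28.1, 28.6 and 26.5 CPM in sham (0.18 ± 0.13, adjusted p = 0.521).

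Genes that work with P450s were followed in 7 lists. Of their 108 tested genes 1 passed in edgeR, against 0.46% of all genes tested. P450s depend on electron supply, and Por, the reductase that serves all microsomal forms, was at 100, 116 and 117 CPM in pSNL, against 121, 118 and 115 CPM in sham (log2 fold change -0.09 ± 0.09, edgeR adjusted p = 0.702). The mitochondrial donors Fdx1 and Fdxr had log2 fold changes of -0.13 ± 0.26 and -0.10 ± 0.24. None of the 15 redox and haem genes passed (2 at an unadjusted p under 0.05, 0 with DESeq2), with 5 positive and 10 negative fold changes and a median of -0.06. Fech, which inserts iron into haem, was at 47.3 ± 3.80 CPM in pSNL and 56.6 ± 4.28 CPM in sham (edgeR adjusted p = 0.296).

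Of 14 tested xenobiotic sensors and partners none passed in edgeR (2 at an unadjusted p under 0.05, 0 with DESeq2). The median of their log2 fold changes was 0.05. The pregnane receptor Nr1i2 was listed in no library, and the constitutive androstane receptor Nr1i3 was at 12.2 ± 1.87 CPM in pSNL and 12.9 ± 2.30 CPM in sham. Of 20 tested conjugation and transport genes none passed in edgeR (4 and 0), with a median of -0.15. Abcg2, a drug efflux pump, was at 30.4 ± 5.08 CPM in pSNL and 41.4 ± 1.29 CPM in sham, and Ugt1a7c, a glucuronosyltransferase, at 15.8 ± 7.31 CPM in pSNL and 6.03 ± 2.89 CPM in sham (edgeR adjusted p = 0.174 and 0.175).

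Retinoid genes, which share substrates with Cyp26b1, Cyp1b1 and Cyp2s1, had 11 positive and 3 negative fold changes among 14 tested and a median of 0.17, where all genes tested had 5480 positive and 5611 negative. None passed in edgeR. An unadjusted p under 0.05 was found for 2, against 15.5% of all genes tested, and both were called by DESeq2, against 2.94%. 1 of these was Crabp2, which carries retinoic acid to its nuclear receptor. It was at 24.0, 31.1 and 24.0 CPM in pSNL, against 11.0, 18.1 and 12.3 CPM in sham. Its groups did not overlap (log2 fold change 0.93 ± 0.21, edgeR adjusted p = 0.082).

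In the eicosanoid list, none of 14 tested genes passed in edgeR (2 at an unadjusted p under 0.05, 0 with DESeq2), with 7 positive and 7 negative fold changes. It holds the P450s that carry other names. Prostacyclin synthase (Ptgis) was at 2.28 ± 1.38 CPM in pSNL and 2.29 ± 0.227 CPM in sham, and thromboxane synthase (Tbxas1) at 2.52 ± 0.479 CPM in pSNL and 1.53 ± 0.865 CPM in sham (edgeR adjusted p = 0.999 and 0.512). Ephx2, the hydrolase that removes the epoxides made by Cyp2j enzymes, was at 11.7 ± 2.64 CPM in pSNL and 11.0 ± 5.94 CPM in sham. Cyp51, the lanosterol demethylase of cholesterol synthesis, was at 512 ± 42.4 CPM in pSNL and 566 ± 12.5 CPM in sham (edgeR adjusted p = 0.454), and none of the 15 cholesterol synthesis genes passed in edgeR (2 and 1).

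Of 16 tested genes of steroid and oxysterol handling 1 rose, the mitochondrial translocator protein gene Tspo, long used as a marker of glial and macrophage activation. It was at 16.1, 29.7 and 22.2 CPM in pSNL, against 8.01, 8.02 and 7.09 CPM in sham, with every pSNL library at least 2 times the sham mean (log2 fold change 1.55 ± 0.24, edgeR adjusted p = 0.0264). It passed without pSNL replicate 1 and did not pass without any other library left out, at an adjusted p of 0.0514 to 0.158 and a log2 fold change of 1.30 to 1.58. The sums of macrophage markers and of fibroblast and meninges markers given above were also higher in every pSNL library than in every sham library. None of the 10 macrophage markers passed in edgeR. Of them 7 had an unadjusted p under 0.05 and 5 were called by DESeq2, against 15.5% and 2.94% of all genes tested. For 5 every pSNL library was above every sham library, where 11.1% of all genes tested were. Among sham libraries, replicate 3 had the highest macrophage sum and the lowest Tspo, though Tspo spanned only 7.09 to 8.02 CPM there. The part of these cells in the result was not tested. Hsd3b1, a steroid dehydrogenase named here after its values were seen, was at 1.13, 1.15 and 1.60 CPM in pSNL and was listed in no sham library. It did not pass the filter, and without it the edgeR adjusted p was 0.086. The cholesterol carrier Star was at 0.229 to 1.15 CPM in pSNL and 0.229 to 0.687 CPM in sham.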

How the data were processed

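Each deposited table covers 1 library and gives, per the file headers, a length, an expected count (the estimated number of reads) and an FPKM value per gene. For 242 member values the authors' FPKM came within 0.111 of expected count over listed length and library total. CASAVA 1.4 and Bowtie2 stand in the submitters' processing notes; the quantifier, genome build, annotation and use of strand are not stated there or in the labels. Genes absent from a file were taken as 0. Symbols came from RefSeq (GRCr8, names and gene order only): 14227 by gene ID, 11 by transcript, and 108 unmatched.

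Expected counts were rounded. pSNL over sham was fitted in edgeR 4.0.16 (R 4.3.3) with TMM factors, the default filter, a robust quasi-likelihood F test and Benjamini-Hochberg adjustment over 11091 genes. SE came from the test statistic. The fit was also run on simulated counts. Changed genes were set there only among genes of higher count, so this does not cover P450 genes of few counts. Alternatives were DESeq2 1.42.0, other factors, no filter, no robust step, a replicate block, and each library left out. 1 CPM is 4.34 to 4.41 counts, so genes of a few CPM carry large counting error. Reads carry no molecular identifiers, so duplicates may make counting intervals too narrow.

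The members and lists were chosen with earlier results of these data known. Values per library are given for Cyp2s1, for members with a mean of 1 CPM or more in a group, and for up to 4 genes of lowest p per list beside those needed for a count; further list genes were named for their role, after their values were seen. Sensory neuron, glial, connective tissue, vessel, epithelial, liver, muscle and blood markers were summed per library. Some genes of the companion lists are not reported here by name.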

Additional observations from a re-analysis of the deposited data

How the results depend on the processing

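The number of P450 genes past the threshold was 1 (Cyp2s1) under every setting other than leave-one-out, and 0 to 1 with 1 library left out. It was 0 without sham replicate 2 and without pSNL replicate 2, where the log2 fold change of Cyp2s1 was 3.52 and 3.92, within its range of 3.43 to 4.96 over all alternatives. Cyp2s1 was singled out beforehand from its pSNL and sham values, so nothing is read from this count under any setting. Over all genes the count was 51, and 89 with no filter, 332 with DESeq2, 111 with the replicate block and 5 to 217 with 1 library left out. Over the companion lists it was 1, and 4 with DESeq2 (Tspo and Crabp2 among them), 3 with the replicate block (Tspo, Crabp2 and Ugt1a7c) and 0 to 1 with 1 library left out. Same-numbered libraries correlated at 0.032, 0.011 and 0.123 in their deviations from group means, and differently numbered ones at -0.105 to 0.104. The highest value, 0.123, was that of the 2 replicate 3 libraries, which both had high skeletal muscle markers. The numbers were not taken to pair the libraries in the main fit, but these values do not settle whether they share a factor. The block changed no call among P450 genes.

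Of the 25 tested P450 genes, 18 kept their sign in all alternatives in which they were tested. Cyp4b1, among these 18, was tested in 11 of the 12 alternatives, since it did not pass the filter without pSNL replicate 3. The other 7 of the 25 had small or single-library fold changes and changed sign without passing. With 1 library left out the log2 fold change reached -0.010 to 0.20 for Cyp27a1, -0.0020 to 0.18 for Cyp2j3, -0.19 to 0.28 for Cyp2j4, -0.17 to 0.59 for Cyp39a1, -0.032 to 0.088 for Cyp4f5, -0.097 to 0.12 for Cyp4x1 (0.0010 with the replicate block) and -0.85 to 0.77 for Cyp7b1. The cause was not tested. P450 genes listed in all libraries numbered 32, 29 when at least 2 counts were asked for, and 32 to 35 with 1 library left out. The filter, at about 10 counts in at least 3 libraries, left out 24 of the 49, none of which was called when it was dropped.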
